A study of Mus musculus with 24 samples.

Results

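SMB21 is 1 of 3 mouse medulloblastoma lines in this series, and its untransformed parental cultures are compared here with those of SMB55 and SMB56. The arrays were chosen by their titles alone, as parental arrays with neither growth factors nor RAS. That gave 8 of 24 arrays: 4 of SMB21, 2 of SMB55 and 2 of SMB56. All 3 lines are labelled Ptch1 mutant, of adult age, and were started from medulloblastomas that arose in mice with 1 disrupted copy of Ptch. They grew as floating spheres in DMEM/F12 with B27 supplement at 2%, with neither serum nor growth factors. Each line stands for its own tumor, so a difference between lines is also a difference between tumors and between culture histories. The titles call the replicates biological. They do not say which cultures the replicates came from, so p-values hold for these arrays and may measure technical spread only. Also used were 7 arrays of RAS transformed cells (3 of SMB21, 2 of SMB55 and 2 of SMB56) and 3 of cells kept in EGF and bFGF, with 1 array per line.

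Medulloblastoma of the Sonic hedgehog (Shh) type grows from cerebellar granule neuron precursors. In these cells the receptor Ptch1 holds the signal transducer Smo in check. Loss of Ptch1 lets Smo act, and the Gli transcription factors then switch on genes such as Gli1, Hhip, Mycn and the D-type cyclins. Granule neuron precursors come from the rhombic lip and are marked by Atoh1, Barhl1, Zic1, Pax6 and Meis1. Neural stem cells and oligodendrocyte precursors, marked by Sox2 and by Olig1, Olig2 and Sox10, are other cell types of the same tissue.

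The labelled cell type was checked against marker levels. On the log2 scale of intensity plus 16, used for every level below, Atoh1 was 12.89 in SMB21 replicate 1 and 12.39 to 12.67 in replicates 2 to 4, against 11.79 to 12.97 in SMB55 and SMB56. Zic1 was 13.38 in SMB21 replicate 1 and 13.33 to 13.68 in replicates 2 to 4, against 13.27 to 13.54 in SMB55 and SMB56. Barhl1 was 9.33 in SMB21 replicate 1 and 9.68 to 10.33 in replicates 2 to 4, against 9.01 to 10.38 in SMB55 and SMB56, and Meis1 was 10.33 in SMB21 replicate 1 and 10.92 to 11.09 in replicates 2 to 4, against 9.71 to 11.32 in SMB55 and SMB56. Gabra6, which marks mature granule neurons, was 5.62 in SMB21 replicate 1 and 5.33 to 5.70 in replicates 2 to 4, against 5.33 to 5.53 in SMB55 and SMB56, close to the lowest level on any array, 4.70. The 15 microglia genes had a median level of 5.72 in SMB21 replicates 2 to 4 and 5.59 in replicate 1, against 5.46 to 5.63 in the SMB55 and SMB56 arrays. The 12 endothelial genes had medians of 6.34 and 5.80, against 5.71 to 6.09. Not all markers were so alike between lines, and the levels of the following ones are given below. Pax6 was lower in both SMB55 arrays than in every other parental array. Sox10 and Olig2 were highest in the SMB55 arrays and SMB56 replicate 2, and Olig1 was high there and in SMB21 replicate 1. None of the genes in this check passed the test described below.

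Arrays of the same label were not always the most alike. Across the 5979 genes with a mean at or above the median of all genes, 8.38, SMB21 replicates 2 to 4 correlated with each other at 0.977 to 0.991. SMB21 replicate 1 correlated with them at only 0.909 to 0.917, and at 0.908 with SMB55 replicate 1. Between 91 and 120 genes lay at least 2-fold from the mean of the other SMB21 arrays in replicates 2, 3 and 4, against 698 in replicate 1.  SMB55 replicates 1 and 2 correlated at 0.928 and differed at least 2-fold in 604 genes. SMB56 replicates 1 and 2 differed that much in 1323 genes and correlated at 0.837, less than SMB56 replicate 1 did with SMB21 replicate 2 (0.890) and less than SMB56 replicate 2 did with SMB55 replicate 2 (0.937). These correlations are across genes, which share probes and culture conditions and are not replicates.

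Y-linked genes, which were left out of the main tests, also separated arrays of the same label. Eif2s3y was 9.54 in SMB21 replicate 1 and 4.95, 4.99 and 5.15 in replicates 2 to 4, against 4.92 and 4.97 in SMB55 and 4.93 and 9.23 in SMB56. Kdm5d was 9.14 in SMB21 replicate 1 and 4.999, 4.93 and 5.02 in replicates 2 to 4, against 5.16 and 5.08 in SMB55 and 8.73 and 8.25 in SMB56. Uty was 7.97 in SMB21 replicate 1 and 4.95, 4.95 and 5.03 in replicates 2 to 4, against 4.93 and 4.94 in SMB55 and 8.65 and 7.82 in SMB56. All 3 genes were thus high in SMB21 replicate 1 and near the floor in replicates 2 to 4, and Eif2s3y was high in only 1 of the 2 SMB56 arrays. In the RAS arrays labelled SMB56, Kdm5d was 4.88 and 5.13 and Uty 4.98 and 5.11, unlike the parental SMB56 arrays and the SMB56 array in growth factors (Kdm5d 8.26, Uty 8.35). Whether all arrays carry the right label was not tested, so each difference below is one between arrays as labelled. Single genes' levels in SMB21 replicate 1 are given apart from those in replicates 2 to 4, and the counts for all genes and for the gene lists are given with and without it.

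**Figure D1:**
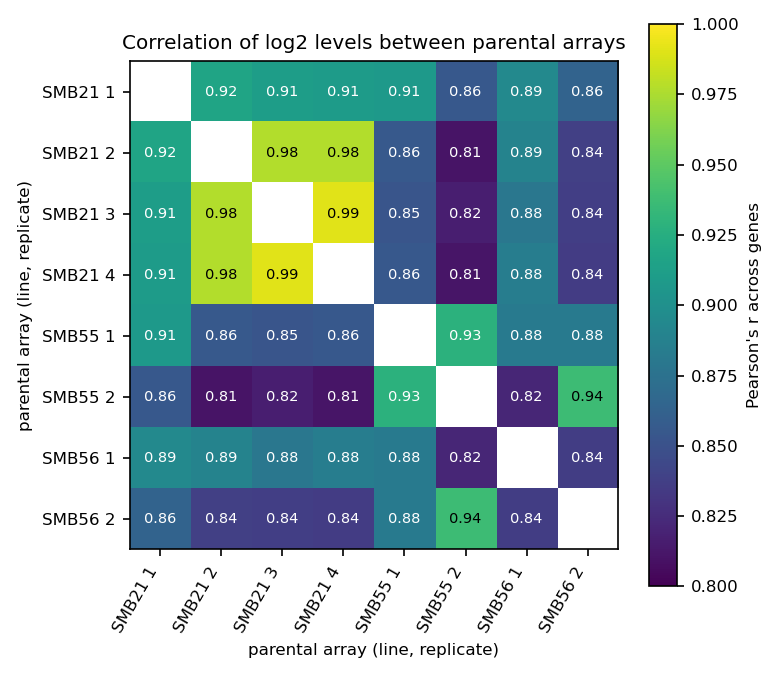
Pearson's r of log2 levels across 5979 genes for each pair of the 8 parental arrays, with lines and replicates on both axes and r as color and number. SMB21 replicates 2 to 4 form a block at 0.977 to 0.991, from which SMB21 replicate 1 stands apart. The 2 SMB56 arrays correlate with each other at only 0.837.

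Of 11958 autosomal genes, 466 (3.9%) passed the test of SMB21 against the mean of the SMB55 and SMB56 means (limma, Benjamini-Hochberg adjusted p under 0.05). Of these, 229 (1.92% of the genes tested) were higher in SMB21 and 237 (1.98%) were lower. At least 2-fold differences made up 211 of the 466, and 405 of the 466 had no overlap between the 4 SMB21 arrays and the 4 others. Among all genes tested, 1453 (12.2%) did not overlap, 936 (7.83%) higher and 517 (4.32%) lower in SMB21. The median difference of all genes was 0.06. Without SMB21 replicate 1 the test passed 1279 genes (10.7%; 718 or 6.0% higher, 561 or 4.69% lower), among them 451 of the 466. The count was 26, 22 and 21 without replicate 2, 3 or 4. Leaving out either SMB55 array lowered the count, and leaving out either SMB56 array raised it. Each of those fits leaves 1 array in that line. In bulk RNA, fewer cells of a kind and less RNA per cell cannot be told apart.

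Olig3 was the largest of the 15 named rises, and 4 other regulators of transcription, Sox18, Runx1t1, Dlx1 and Ebf3, were among them. Olig3, a basic helix-loop-helix factor of rhombic lip progenitors, was 9.81 in SMB21 replicate 1 and 9.04, 9.50 and 9.35 in replicates 2 to 4, against 5.65 and 5.55 in SMB55 and 5.69 and 7.94 in SMB56. All 4 SMB21 arrays were high, and of the others only SMB56 replicate 2 was above the floor by more than 2 units. Olig3 averaged 9.42 ± 0.32 in SMB21 (SD, n = 4), against 6.21 ± 1.16 in SMB55 and SMB56 (SD, n = 4), and rose in SMB21 (log2 difference 3.21, SE 0.45, adjusted p = 0.0216 by limma). Dlx1, a homeobox factor best known from forebrain interneurons, was 8.14 in SMB21 replicate 1 and 8.59, 8.72 and 8.43 in replicates 2 to 4, against 6.32 and 6.16 in SMB55 and 6.68 and 6.98 in SMB56. The groups did not overlap and Dlx1 rose in SMB21 (1.93, SE 0.15, adjusted p = 0.00456 by limma). Sox18, a factor of vessel development, was 12.36 in SMB21 replicate 1 and 11.98 to 12.38 in replicates 2 to 4, against 8.64 to 11.21 in SMB55 and SMB56. It rose in SMB21 (2.64, SE 0.50, adjusted p = 0.0414 by limma), beside 0 of 12 endothelial genes past the threshold. Of those, Pecam1 was 5.17 in SMB21 replicate 1 and 5.40 to 5.55 in replicates 2 to 4, against 5.35 to 5.43 in SMB55 and SMB56, and Cdh5 was 5.29 in SMB21 replicate 1 and 5.59 to 6.91 in replicates 2 to 4, against 5.21 to 5.57 in SMB55 and SMB56. Runx1t1, a transcriptional co-repressor, was 8.09 in SMB21 replicate 1 and 8.80, 8.73 and 9.19 in replicates 2 to 4, against 5.54 and 5.32 in SMB55 and 7.22 and 6.46 in SMB56. SMB56 lay between SMB21 and SMB55, and Runx1t1 rose in SMB21 (2.57, SE 0.27, adjusted p = 0.0105 by limma). Ebf3, a factor of neuronal differentiation, was 11.78 in SMB21 replicate 1 and 11.62 to 11.79 in replicates 2 to 4, against 9.04 to 10.52 in SMB55 and SMB56, and rose in SMB21 (1.73, SE 0.21, adjusted p = 0.0158 by limma).

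The other named rises included transporters and enzymes. Slc1a5, a carrier of glutamine and other neutral amino acids, was 8.95 in SMB21 replicate 1 and 9.06, 9.01 and 8.74 in replicates 2 to 4, against 6.21 and 6.05 in SMB55 and 7.16 and 7.67 in SMB56. The SMB21 arrays lay close together, more than 1 unit above every other array. Slc1a5 rose 4.49-fold in SMB21 (2.17, SE 0.14, adjusted p = 0.00375 by limma). Setd6, a lysine methyltransferase, was 9.18 in SMB21 replicate 1 and 9.63, 9.63 and 9.32 in replicates 2 to 4, against 6.52 and 5.90 in SMB55 and 9.14 and 8.33 in SMB56. It rose in SMB21 (1.97, SE 0.23, adjusted p = 0.0152 by limma), but the upper SMB56 array nearly reached the lowest SMB21 array. Pter, which encodes a phosphotriesterase-related protein, was 8.41 in SMB21 replicate 1 and 9.01, 9.17 and 8.88 in replicates 2 to 4, against 5.94 and 5.83 in SMB55 and 7.68 and 7.73 in SMB56, and rose in SMB21 (2.07, SE 0.17, adjusted p = 0.00456 by limma). Xpr1, a phosphate exporter, was 11.69 in SMB21 replicate 1 and averaged 12.09 in replicates 2 to 4, against 9.90 to 11.48 in SMB55 and SMB56. Ramp1, a partner of the receptor for calcitonin gene-related peptide, was 9.23 in SMB21 replicate 1 and 8.14 to 8.79 in replicates 2 to 4, against 5.92 to 7.25 in SMB55 and SMB56. Both rose in SMB21 (Xpr1 1.63, SE 0.30, adjusted p = 0.0408, and Ramp1 2.22, SE 0.31, adjusted p = 0.0216, by limma). Kcnn2 (a calcium-activated potassium channel), Bcar3 (a signalling adaptor), Adat2 (a tRNA deaminase), Man1a2 (a Golgi mannosidase) and Selenop (a selenium carrier) completed the 15 largest rises, with differences of 1.62 to 1.90. Man1a2 was 9.29 in SMB21 replicate 1, against 10.54 to 10.66 in replicates 2 to 4, so replicate 1 was close to the other lines.

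Several of the genes that fell in SMB21 were near the array's floor there and strongly present in the other lines. Gsn, the actin-severing protein gelsolin, was 7.44 in SMB21 replicate 1 and 6.98, 6.28 and 6.07 in replicates 2 to 4, against 11.46 and 11.50 in SMB55 and 10.42 and 11.998 in SMB56. Every SMB21 array was more than 2 units below every other array. Gsn averaged 6.69 ± 0.63 in SMB21 (SD, n = 4), against 11.34 ± 0.66 in SMB55 and SMB56 (SD, n = 4), and fell by 4.65 in SMB21 (SE 0.42, adjusted p = 0.0062 by limma). Of its 6 probe sets, 4 gave falls between -4.39 and -5.11, and the 2 dimmest gave -0.48 and 0.02. Tmem267, a predicted membrane protein, was 5.54 in SMB21 replicate 1 and 5.80, 5.21 and 5.34 in replicates 2 to 4, against 10.83 and 10.62 in SMB55 and 8.70 and 10.04 in SMB56. It was near the floor in SMB21 alone and fell by 4.57 (SE 0.29, adjusted p = 0.00375 by limma). Tmem98, another membrane protein, was 6.96 in SMB21 replicate 1 and 7.28, 7.30 and 6.66 in replicates 2 to 4, against 10.33 and 10.50 in SMB55 and 10.43 and 10.06 in SMB56. Its 2 ranges were narrow and far apart, and it fell by 3.28 (SE 0.17, adjusted p = 0.0032 by limma). Because 16 was added before the logarithm, a difference of a gene near the floor is understated.

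Bag3 and Cryab, of protein quality control, were also among the 15 named falls. Bag3, a co-chaperone of damaged proteins, was 6.29 in SMB21 replicate 1 and 6.11, 6.18 and 6.50 in replicates 2 to 4, against 8.46 and 8.99 in SMB55 and 8.52 and 9.34 in SMB56. The SMB21 arrays lay close together and far below the others, and Bag3 fell by 2.56 (SE 0.21, adjusted p = 0.00456 by limma). Cryab, a small heat-shock protein that works with Bag3, was 6.69 in SMB21 replicate 1 and 7.84, 7.70 and 7.60 in replicates 2 to 4, against 8.85 and 10.22 in SMB55 and 12.02 and 10.50 in SMB56. Here SMB21 replicate 1 was the lowest of all arrays, and Cryab fell by 2.94 (adjusted p = 0.0275 by limma). Of its 3 probe sets 2 fell, and the dimmest, at a mean of 5.47, gave a difference of 0.09. Ndrg1, a gene known to respond to hypoxia and metals, was 6.70 in SMB21 replicate 1 and 6.27, 6.33 and 6.05 in replicates 2 to 4, against 7.62 and 9.71 in SMB55 and 10.94 and 10.26 in SMB56, and fell by 3.29 (adjusted p = 0.0196 by limma). Zdhhc2, a palmitoyltransferase, was 7.33 in SMB21 replicate 1 and 5.66 to 6.04 in replicates 2 to 4, against 8.97 to 10.75 in SMB55 and SMB56, and fell by 3.93 (adjusted p = 0.0169 by limma). Tubb6, a beta-tubulin, was 5.83 in SMB21 replicate 1 and 5.97 to 6.35 in replicates 2 to 4, against 8.05 to 10.05 in SMB55 and SMB56, and fell by 2.71 (adjusted p = 0.00868 by limma). Lmcd1, a LIM domain co-regulator, and Apobec2, of the cytidine deaminase family, fell too (-2.74 and -3.14, adjusted p = 0.0214 and 0.021 by limma).

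For 4 more of the 15 largest falls, SMB21 replicate 1 stood well above replicates 2 to 4. Pkia, an inhibitor of protein kinase A, was 8.88 in SMB21 replicate 1 and 5.05, 5.19 and 5.09 in replicates 2 to 4, against 11.15 and 10.89 in SMB55 and 10.35 and 9.57 in SMB56. Replicates 2 to 4 were at the floor and replicate 1 was more than 3 units above them, still below the other lines. Synpr, a synaptic vesicle protein, was 8.58 in SMB21 replicate 1 and 6.12, 6.08 and 5.96 in replicates 2 to 4, against 11.16 and 9.70 in SMB55 and 9.77 and 9.05 in SMB56, with the same order. Zfp105, a zinc finger protein, was 7.97 in SMB21 replicate 1 and 5.33 to 5.66 in replicates 2 to 4, against 8.34 to 9.44 in SMB55 and SMB56, and Mfap4, a microfibril protein, was 8.94 in SMB21 replicate 1 and 6.72 to 7.32 in replicates 2 to 4, against 8.96 to 10.79 in SMB55 and SMB56. For Mfap4 replicate 1, at 8.94, almost met SMB56 replicate 2, at 8.96. The 4 genes fell in SMB21 (-4.44, -3.24, -2.86 and -2.73, adjusted p = 0.0458, 0.049, 0.0492 and 0.0492 by limma). Without replicate 1 the differences were -5.38, -3.87, -3.48 and -3.23.

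Only 7 of these 30 genes stayed past the threshold whichever single array was left out: Slc1a5, Pter, Dlx1, Gsn, Tmem267, Tmem98 and Bag3. Man1a2, Pkia, Synpr and Zfp105 did so in 1 of 8 such fits. The other 19 did so in 2 to 6 of 8. Of 35 further genes past the threshold, named as members of gene lists, Itgav and Abcg2 passed in all 8 fits and the other 33 in 1 to 6. With the replicate number as a block, 0 genes passed, these included. Numbers above 2 occur in SMB21 alone, so that fit compares the lines only within numbers 1 and 2. It also leaves few arrays to estimate the spread. Its count of 0 therefore cannot tell unstable genes from the loss of arrays, and no conclusion is drawn from it.

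**Figure D2:**
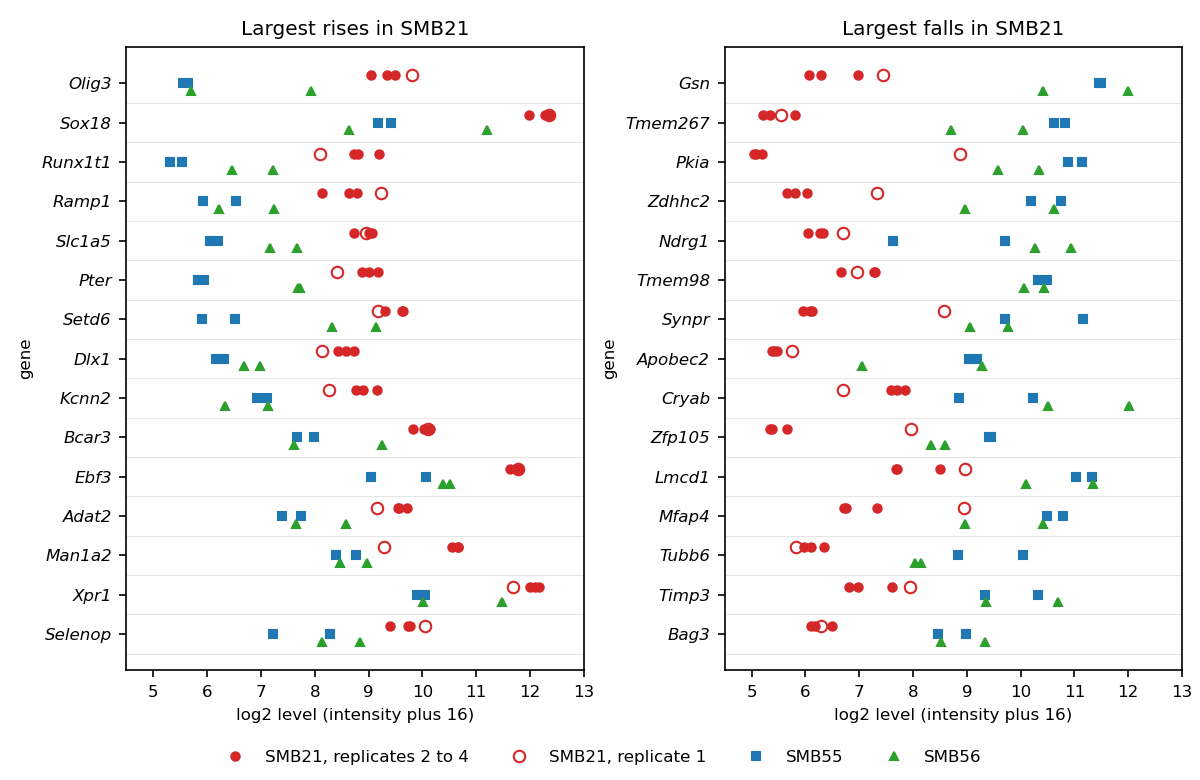
Log2 level of the 15 largest rises and 15 largest falls in each parental array. Filled circles are SMB21 replicates 2 to 4, open circles SMB21 replicate 1, squares SMB55 and triangles SMB56. The open circle lies among the filled ones for Slc1a5, Tmem98 and Bag3 and apart from them for Man1a2, Pkia, Synpr, Zfp105 and Mfap4.

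The promoters of 3 of these genes are shown: Olig3 as the largest rise, Tmem267 as a gene near the floor in parental SMB21 alone, and Bag3 as the fall that was wider in RAS cells. The sequences are RefSeq's on GRCm38.p6, from 250 bases before the annotated start to 50 after it. Capitals mark CG dinucleotides in Olig3 (chr10:19356289-19356588, plus strand) and in the first of 2 Tmem267 starts (chr13:119487836-119488135, plus strand). In Bag3 (chr7:128523333-128523632, plus strand) they mark GAANNTTC, a pair of inverted heat shock factor half-sites that reads the same on both strands.
Olig3: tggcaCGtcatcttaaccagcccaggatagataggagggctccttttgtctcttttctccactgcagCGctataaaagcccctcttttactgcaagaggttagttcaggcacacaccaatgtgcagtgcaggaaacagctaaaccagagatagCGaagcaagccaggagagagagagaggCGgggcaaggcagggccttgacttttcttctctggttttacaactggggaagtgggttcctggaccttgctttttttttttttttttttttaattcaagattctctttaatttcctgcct
Tmem267: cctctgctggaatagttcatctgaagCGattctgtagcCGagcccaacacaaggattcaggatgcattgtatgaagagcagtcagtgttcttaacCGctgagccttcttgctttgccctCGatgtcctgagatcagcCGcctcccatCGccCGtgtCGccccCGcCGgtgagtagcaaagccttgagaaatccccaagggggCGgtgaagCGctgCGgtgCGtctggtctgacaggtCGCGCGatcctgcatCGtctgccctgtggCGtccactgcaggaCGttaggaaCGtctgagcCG
Bag3: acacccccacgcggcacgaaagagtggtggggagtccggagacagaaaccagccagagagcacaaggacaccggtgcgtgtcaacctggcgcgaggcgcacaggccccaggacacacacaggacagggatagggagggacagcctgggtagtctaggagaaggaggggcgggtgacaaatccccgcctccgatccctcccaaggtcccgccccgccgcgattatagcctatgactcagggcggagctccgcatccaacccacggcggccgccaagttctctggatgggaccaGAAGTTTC
The Olig3 window holds 4 CG dinucleotides, the Tmem267 window 22 and the Bag3 window 21, and the median over the 32851 promoters of the table is 7. At least 22 were found in 23.1% of promoters and at least 4 in 68.6%. GAANNTTC occurs once in the Bag3 window, at its base 293, after the start. It occurs in 7.86% of all promoters, and a match of letters describes the window only.

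Among Shh pathway targets and components single genes passed the test. For this and every list below, the share to set beside a count is 3.9% of all genes (1.92% higher, 1.98% lower), or 10.7% (6.0% higher, 4.69% lower) without SMB21 replicate 1. Of 9 targets tested, 1 rose, 1 fell and 7 did not pass, with a median difference of -0.03; without replicate 1, 0 rose and 1 fell. Of 9 components, 1 rose with and without replicate 1, and the median was 0.10. Hhip, a target that binds the ligand and dampens the pathway, was 9.01 in SMB21 replicate 1 and 8.02, 8.79 and 8.37 in replicates 2 to 4, against 7.29 and 5.91 in SMB55 and 6.09 and 7.10 in SMB56. All SMB21 arrays lay above all others, and Hhip rose (1.95, SE 0.39, adjusted p = 0.0452 by limma). Without SMB21 replicate 1 its adjusted p was 0.0502, just outside the threshold. Mycn, a target that drives precursor division, was 10.95 in SMB21 replicate 1 and 10.23, 10.53 and 10.71 in replicates 2 to 4, against 12.15 and 12.30 in SMB55 and 12.09 and 11.43 in SMB56. It fell in SMB21 (-1.39, SE 0.20, adjusted p = 0.024 by limma), with no overlap. Of its 3 probe sets 2 fell and the dimmest gave 0.24. Gli2, the main activating Gli factor, was 12.15 in SMB21 replicate 1 and 12.23, 12.32 and 12.09 in replicates 2 to 4, against 11.13 and 10.65 in SMB55 and 11.60 and 11.93 in SMB56, and rose in SMB21 (0.87, SE 0.14, adjusted p = 0.0275 by limma).

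Gli1, Ptch1 and Smo did not pass the test. Gli1, the readout most used for pathway activity, was 10.38 in SMB21 replicate 1 and 10.25, 9.88 and 9.51 in replicates 2 to 4, against 9.34 and 9.81 in SMB55 and 8.62 and 9.79 in SMB56. The SMB21 and SMB55 ranges overlapped, and the difference was 0.62 (adjusted p = 0.294 by limma). Ptch1, the gene disrupted in these mice, was 11.93 in SMB21 replicate 1 and 10.84 to 11.39 in replicates 2 to 4, against 11.32 to 12.37 in SMB55 and SMB56, with a difference of -0.49 (adjusted p = 0.379 by limma). The sources used here do not say whether its probes lie in the disrupted part, so this level checks no genotype. Smo was 11.56 in SMB21 replicate 1 and 11.49 to 11.79 in replicates 2 to 4, against 10.90 to 11.37 in SMB55 and SMB56 (difference 0.40, adjusted p = 0.127 by limma). Sufu, a negative regulator, and Boc, a co-receptor, had differences of 0.37 and -0.27 (adjusted p = 0.408 and 0.297 by limma). Ccnd1, a D-type cyclin, was 12.94 in SMB21 replicate 1 and 12.71 to 12.99 in replicates 2 to 4, against 12.36 to 13.18 in SMB55 and SMB56 (difference 0.03, adjusted p = 0.932 by limma). Ccnd2 differed by 0.21 (adjusted p = 0.773 by limma). Sfrp1, a secreted Wnt antagonist, differed by -0.44 (adjusted p = 0.484 by limma).

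Of 14 granule neuron precursor genes, 1 passed the test with and without replicate 1: Zic5, a zinc finger factor of the dorsal neural tube. Zic5 was 11.20 in SMB21 replicate 1 and 11.60, 11.75 and 11.90 in replicates 2 to 4, against 7.13 and 7.90 in SMB55 and 11.69 and 10.81 in SMB56. The 2 SMB55 arrays were low and the SMB56 arrays overlapped those of SMB21, so the rise of 2.23 (SE 0.27, adjusted p = 0.0155 by limma) was a difference from SMB55. Against SMB56 alone Zic5 differed by 0.36 (adjusted p = 0.664 by limma). Zic2 and Otx2, a midbrain and cerebellar homeobox factor, had the same pattern without passing. Zic2 was 9.71 in SMB21 replicate 1 and 10.04, 10.68 and 10.90 in replicates 2 to 4, against 7.42 and 7.25 in SMB55 and 11.17 and 9.59 in SMB56. Otx2 was 9.12 in SMB21 replicate 1 and 10.30, 10.01 and 10.39 in replicates 2 to 4, against 5.06 and 5.22 in SMB55 and 11.90 and 9.08 in SMB56. Pax6 was 10.07 in SMB21 replicate 1 and 11.18, 11.04 and 11.28 in replicates 2 to 4, against 9.28 and 7.49 in SMB55 and 10.79 and 9.68 in SMB56, and differed by 1.58 (adjusted p = 0.116 by limma). Atoh1, Zic1 and Barhl1 differed by 0.24, 0.09 and 0.10, with adjusted p-values of 0.589, 0.693 and 0.901 by limma.

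Of 11 mature granule neuron genes 2 fell and 9 did not pass, and without replicate 1, 1 fell. Grin2c, an NMDA receptor subunit, was 5.87 in SMB21 replicate 1 and 5.92, 5.96 and 5.89 in replicates 2 to 4, against 8.96 and 8.63 in SMB55 and 9.01 and 6.89 in SMB56, and fell by 2.46 (adjusted p = 0.0317 by limma). Kcnd2, a potassium channel, was 4.91 in SMB21 replicate 1 and 5.59, 5.44 and 5.53 in replicates 2 to 4, against 9.70 and 9.78 in SMB55 and 5.75 and 8.93 in SMB56. SMB56 replicate 1 was just above the SMB21 arrays, and Kcnd2 fell by 3.17 (adjusted p = 0.045 by limma). Of 18 neuronal differentiation genes 1 fell, Cntn1, a neural cell adhesion molecule, and without replicate 1, 4 fell. Cntn1 was 5.72 in SMB21 replicate 1 and 6.14, 5.64 and 5.78 in replicates 2 to 4, against 11.99 and 12.91 in SMB55 and 7.54 and 13.61 in SMB56. The other lines were high except SMB56 replicate 1, and Cntn1 fell by 5.70 (SE 1.16, adjusted p = 0.0485 by limma). Without SMB21 replicate 1 its adjusted p was 0.0536, although its level in that array matched the other SMB21 arrays. Neurod1, a factor of granule neuron differentiation, was 12.32 in SMB21 replicate 1 and 9.58, 9.73 and 9.97 in replicates 2 to 4, against 11.01 and 9.55 in SMB55 and 11.08 and 11.13 in SMB56, and Stmn2, a neuronal growth cone protein, was 8.67 in SMB21 replicate 1 and 6.63, 6.24 and 6.62 in replicates 2 to 4, against 6.43 and 6.24 in SMB55 and 7.30 and 6.85 in SMB56. Both were highest in SMB21 replicate 1 and did not pass (adjusted p = 0.828 and 0.739 by limma).

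Oligodendrocyte lineage genes differed widely between arrays, and none passed with all arrays in the test. The median difference of the 11 genes was -1.72, against 0.06 for all genes, and 0 of 11 passed. Sox10, the defining factor of the lineage, was 7.27 in SMB21 replicate 1 and 7.83, 7.99 and 7.71 in replicates 2 to 4, against 10.15 and 12.27 in SMB55 and 7.87 and 12.45 in SMB56. Olig2 was 6.95 in SMB21 replicate 1 and 5.07, 5.06 and 5.06 in replicates 2 to 4, against 9.06 and 10.59 in SMB55 and 7.03 and 11.12 in SMB56. Olig1 was 13.35 in SMB21 replicate 1 and 5.77, 6.13 and 5.72 in replicates 2 to 4, against 13.04 and 13.97 in SMB55 and 9.38 and 13.53 in SMB56. All 4 SMB21 arrays and SMB56 replicate 1 were low for Sox10, whereas SMB21 replicate 1 was as high as SMB55 for Olig1. Mbp, a myelin protein, was 5.73 in SMB21 replicate 1 and 5.08, 5.47 and 5.24 in replicates 2 to 4, against 8.52 and 11.91 in SMB55 and 6.70 and 10.01 in SMB56, and Mog, another, was 4.997 in SMB21 replicate 1 and 4.997 to 5.16 in replicates 2 to 4, against 5.01 to 5.08 in SMB55 and SMB56. The differences were -2.98, -3.92, -4.74 and -3.90 for Sox10, Olig2, Olig1 and Mbp (adjusted p = 0.135, 0.068, 0.205 and 0.064 by limma). Without SMB21 replicate 1, 2 of the 11 genes fell, and without both SMB21 replicate 1 and SMB56 replicate 1, 6 did. The summed level of the list was 81.35 in SMB21 replicate 1 and 70.54 to 71.41 in replicates 2 to 4, against 79.07 to 108.05 in SMB55 and SMB56. The astrocyte list had 0 of 13 genes past the threshold (2 lower without replicate 1), with Gfap at 6.79 in SMB21 replicate 1 and 6.42 to 7.03 in replicates 2 to 4, against 6.61 to 7.47 in SMB55 and SMB56.

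Of 25 extracellular matrix genes 4 (16%) fell and 0 rose, against 3.9% of all genes past the threshold, with a median difference of -1.12. Without replicate 1, 6 fell. Fn1, fibronectin, was 8.57 in SMB21 replicate 1 and 7.21, 6.96 and 6.73 in replicates 2 to 4, against 8.95 and 10.003 in SMB55 and 9.93 and 10.06 in SMB56. The groups did not overlap, though SMB21 replicate 1 was nearest to SMB55 replicate 1, and Fn1 fell by 2.37 (SE 0.43, adjusted p = 0.0402 by limma). Timp3, a matrix-bound inhibitor of metalloproteinases, was 7.95 in SMB21 replicate 1 and 7.61, 6.97 and 6.80 in replicates 2 to 4, against 9.35 and 10.31 in SMB55 and 9.35 and 10.70 in SMB56, and fell by 2.60 (adjusted p = 0.0275 by limma). Col5a1, a fibrillar collagen chain, was 7.32 in SMB21 replicate 1 and 6.23 to 6.96 in replicates 2 to 4, against 8.15 to 9.43 in SMB55 and SMB56, and fell by 1.71 (adjusted p = 0.0447 by limma). The fourth, Col4a2, a basement membrane collagen chain outside the rule for named genes, was 6.73 in SMB21 replicate 1 and 6.32, 6.38 and 6.28 in replicates 2 to 4, against 6.26 and 7.62 in SMB55 and 8.61 and 8.74 in SMB56 and overlapped between groups. Col11a1, another collagen chain, did not pass (adjusted p = 0.0574 by limma) at 8.37 in SMB21 replicate 1 and 6.07, 6.08 and 6.07 in replicates 2 to 4, against 10.92 and 13.51 in SMB55 and 9.38 and 14.48 in SMB56. The fibroblast and meningeal list had 0 of 10 genes past the threshold, at a summed level of 58.9 in SMB21 replicate 1 and 62.6 to 63.7 in replicates 2 to 4, against 60.2 to 68.8 in SMB55 and SMB56.

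Of 25 cadherins and integrins 6 (24%) fell and 0 rose, against 3.9% of all genes, while the list's median difference was -0.11. Without replicate 1, 7 fell. Cdh20, a cadherin that is not in the list, rose (1.01, adjusted p = 0.0241 by limma). Itgav, the alpha-v integrin chain, was 11.30 in SMB21 replicate 1 and 10.87, 11.26 and 11.10 in replicates 2 to 4, against 12.19 and 12.22 in SMB55 and 12.88 and 12.78 in SMB56. It fell by 1.38 (SE 0.12, adjusted p = 0.00456 by limma). Cdh13, a cadherin with no cytoplasmic domain, was 7.73 in SMB21 replicate 1 and 7.52, 7.56 and 7.55 in replicates 2 to 4, against 8.56 and 9.02 in SMB55 and 9.40 and 9.04 in SMB56, and fell by 1.42 (adjusted p = 0.00894 by limma). Itga9, the alpha-9 integrin chain, was 7.09 in SMB21 replicate 1 and 7.08 to 7.36 in replicates 2 to 4, against 7.89 to 8.60 in SMB55 and SMB56, and fell by 1.07 (adjusted p = 0.0152 by limma). Cdh2, N-cadherin, was 10.89 in SMB21 replicate 1 and 10.35, 10.57 and 10.32 in replicates 2 to 4, against 12.09 and 11.73 in SMB55 and 11.73 and 11.31 in SMB56. It fell too (-1.18, adjusted p = 0.0246 by limma), as did the protocadherins Pcdh7 and Pcdh8. Cdh2, Cdh20, Pcdh7 and Pcdh8 are outside the rule for named genes and were chosen after their values were seen.

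Of 16 antigen presentation genes 3 fell and 0 rose (4 fell without replicate 1), with a median of -0.59. Tapbp, which loads peptide on class I molecules, was 8.25 in SMB21 replicate 1 and 8.17, 8.54 and 8.34 in replicates 2 to 4, against 9.27 and 9.63 in SMB55 and 10.25 and 9.86 in SMB56, and fell by 1.43 (adjusted p = 0.00966 by limma). Canx, a chaperone of glycoproteins, and Psmb9, an immunoproteasome subunit, fell by 0.66 and 0.78 (adjusted p = 0.0246 and 0.0497 by limma). The class I chains H2-K1 and H2-D1 did not pass. H2-K1 was 8.23 in SMB21 replicate 1 and 8.24, 8.78 and 8.68 in replicates 2 to 4, against 9.81 and 10.97 in SMB55 and 8.15 and 10.23 in SMB56, with SMB56 replicate 1 as low as SMB21. Of 21 interferon response genes 1 (4.76%) fell with and without replicate 1, near the share of all genes: the GTPase Irgm1, at 6.62 in SMB21 replicate 1 and 7.55, 7.56 and 7.03 in replicates 2 to 4, against 8.88 and 8.76 in SMB55 and 8.74 and 8.34 in SMB56 (-1.49, adjusted p = 0.0275 by limma). The interferon list's median was 0.03.

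Of 21 glutathione and oxidative stress genes 4 fell and 0 rose (5 fell without replicate 1), and the list's median was -0.06. Abcg2, a drug efflux pump, was 7.90 in SMB21 replicate 1 and 7.75, 7.34 and 7.37 in replicates 2 to 4, against 8.96 and 8.91 in SMB55 and 10.02 and 10.30 in SMB56. The SMB21 arrays were lowest and the SMB56 arrays highest, and Abcg2 fell by 1.96 (SE 0.16, adjusted p = 0.00456 by limma). A second pump, Abcb1b, also fell (-1.72, adjusted p = 0.0312 by limma), although it is outside the rule for named genes. Cat, catalase, was 10.76 in SMB21 replicate 1 and 10.19 to 10.60 in replicates 2 to 4, against 11.28 to 11.68 in SMB55 and SMB56, and fell by 1.02 (adjusted p = 0.0246 by limma). Gpx3, a secreted glutathione peroxidase, was 6.95 in SMB21 replicate 1 and 6.87 to 6.96 in replicates 2 to 4, against 7.37 to 8.05 in SMB55 and SMB56, and fell by 0.77 (adjusted p = 0.0196 by limma). Gclc and Gclm, the subunits of the first enzyme of glutathione synthesis, differed by -0.06 and 0.03 and did not pass. Gss, the second enzyme, is not in the list and fell (-1.08, adjusted p = 0.0408 by limma). It was added after its value was seen.

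In the amino acid stress list 2 of 19 genes rose (3 without replicate 1). Atf5, a stress-induced transcription factor, was 12.57 in SMB21 replicate 1 and 11.73, 11.95 and 11.82 in replicates 2 to 4, against 10.87 and 11.14 in SMB55 and 9.63 and 10.74 in SMB56, and rose (1.42, SE 0.28, adjusted p = 0.0459 by limma). Phgdh, the first enzyme of serine synthesis, was 13.77 in SMB21 replicate 1 and 13.72, 13.89 and 13.83 in replicates 2 to 4, against 13.34 and 13.40 in SMB55 and 13.38 and 13.20 in SMB56. The groups did not overlap and Phgdh rose by 0.48 (SE 0.09, adjusted p = 0.0396 by limma). Asns, Psat1 and Atf4 differed by -0.04, 0.23 and 0.32 and did not pass. Of 29 axon guidance genes 3 rose and 1 fell (5 and 4 without replicate 1). Nrp2, a semaphorin receptor, was 7.73 in SMB21 replicate 1 and 8.83, 8.65 and 8.67 in replicates 2 to 4, against 6.90 and 7.30 in SMB55 and 7.22 and 7.10 in SMB56, and Plxna2, a plexin, was 9.84 in SMB21 replicate 1 and 9.87 to 10.32 in replicates 2 to 4, against 8.38 to 9.34 in SMB55 and SMB56. Both rose (Nrp2 1.34, SE 0.25, adjusted p = 0.0416, and Plxna2 1.23, SE 0.22, adjusted p = 0.0383, by limma). The ephrin Efna1 rose and the ephrin receptor Epha5 fell, and Epha5 at 5.70 in SMB21 replicate 1 and 5.42, 5.35 and 5.25 in replicates 2 to 4, against 8.08 and 7.35 in SMB55 and 5.49 and 5.39 in SMB56 was high only in SMB55.

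In the Notch list 2 of 16 genes fell, with and without replicate 1. In the Wnt list 1 of 19 rose and 1 fell (2 and 3 without replicate 1), and of 18 growth factor receptor and RAS genes 1 rose (2 without it). Hey1, a Notch target, was 9.48 in SMB21 replicate 1 and 9.36, 9.05 and 9.57 in replicates 2 to 4, against 10.93 and 10.56 in SMB55 and 11.06 and 10.65 in SMB56, and fell by 1.44 (SE 0.16, adjusted p = 0.0142 by limma). Hes5, another Notch target, fell by 0.74 (adjusted p = 0.0452 by limma), yet at 7.36 in SMB21 replicate 1 and 7.01, 7.04 and 7.28 in replicates 2 to 4, against 8.85 and 9.17 in SMB55 and 6.62 and 7.03 in SMB56 it was high only in SMB55. Sfrp2, a secreted Wnt modulator, was 10.74 in SMB21 replicate 1 and 11.05, 11.27 and 11.36 in replicates 2 to 4, against 8.38 and 7.87 in SMB55 and 11.27 and 9.85 in SMB56, and its rise (1.76, adjusted p = 0.039 by limma) came with low levels in SMB55. Lgr5, a Wnt pathway receptor, fell by 0.40 (adjusted p = 0.0452 by limma), again with only SMB55 high. Fgfr2, a fibroblast growth factor receptor, was 9.20 in SMB21 replicate 1 and 10.04, 10.47 and 9.98 in replicates 2 to 4, against 8.23 and 8.40 in SMB55 and 7.84 and 8.92 in SMB56, and rose (1.57, SE 0.33, adjusted p = 0.0493 by limma). Among 13 neural stem cell genes 1 fell (3 without replicate 1), the intermediate filament Vim, at 12.10 in SMB21 replicate 1 and 11.40, 11.41 and 10.84 in replicates 2 to 4, against 12.68 and 13.25 in SMB55 and 13.07 and 13.16 in SMB56 (-1.60, adjusted p = 0.0322 by limma). Sox2 was 10.87 in SMB21 replicate 1 and 8.98 to 9.80 in replicates 2 to 4, against 9.86 to 12.61 in SMB55 and SMB56 and Nes, nestin, was 10.11 in SMB21 replicate 1 and 9.84 to 10.20 in replicates 2 to 4, against 9.54 to 10.09 in SMB55 and SMB56. Neither passed (adjusted p = 0.225 and 0.207 by limma).

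Of 25 proliferation genes 1 (4%) fell, about the share of all genes, and without replicate 1, 2 fell and 1 rose. It was E2f1, an S-phase transcription factor, at 10.14 in SMB21 replicate 1 and 10.05, 9.79 and 9.57 in replicates 2 to 4, against 11.86 and 12.37 in SMB55 and 9.84 and 10.37 in SMB56 (-1.22, adjusted p = 0.0292 by limma). Only SMB55 was high, and SMB56 replicate 1 lay within the SMB21 range. Of 7 Cdk inhibitors 1 fell (2 without replicate 1), Cdkn2c, at 10.58 in SMB21 replicate 1 and 10.41 to 10.83 in replicates 2 to 4, against 11.02 to 11.66 in SMB55 and SMB56 (-0.72, adjusted p = 0.0247 by limma). Cdkn2a, which encodes Ink4a and Arf, was high in all lines at 11.67 in SMB21 replicate 1 and 12.14 to 12.48 in replicates 2 to 4, against 11.28 to 12.03 in SMB55 and SMB56 (adjusted p = 0.273 by limma). Cdkn1a, the p53 target p21, was 10.46 in SMB21 replicate 1 and 8.74, 8.34 and 8.56 in replicates 2 to 4, against 10.99 and 11.58 in SMB55 and 10.47 and 10.70 in SMB56. SMB21 replicate 1 was near the other lines. The difference was -1.91 with that array (adjusted p = 0.0724 by limma) and -2.39 without it (adjusted p = 0.00325). The p53, ERK, cholesterol, BMP and TGF-beta, retinoic acid and germline lists had 0 genes past the threshold, with medians between -0.12 and 0.09. Without replicate 1 the p53 list had 1 higher and 3 lower, the BMP and TGF-beta list 2 lower, the cholesterol, retinoic acid and germline lists 1 higher each, and the ERK list 0. At an unadjusted p under 0.05, 2630 genes of all 11958 differed.

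Genes of position along the neural axis gave 1 rise and 2 falls among 37 (3 and 2 without replicate 1). Beside Dlx1, Irx1, an Iroquois homeobox factor, was 5.67 in SMB21 replicate 1 and 6.27, 6.0 and 6.13 in replicates 2 to 4, against 7.93 and 9.11 in SMB55 and 7.54 and 9.01 in SMB56, and fell by 2.38 (SE 0.38, adjusted p = 0.029 by limma). Foxa2, a floor plate factor, was 5.69 in SMB21 replicate 1 and 6.14 to 6.39 in replicates 2 to 4, against 6.72 to 7.52 in SMB55 and SMB56, and fell by 0.97 (adjusted p = 0.036 by limma). Hoxc4 was 5.52 in SMB21 replicate 1 and 10.28, 9.78 and 9.95 in replicates 2 to 4, against 8.11 and 7.50 in SMB55 and 7.93 and 7.97 in SMB56. It was highest in SMB21 replicates 2 to 4 and at the floor in replicate 1. Of 28 imprinted genes 1 (3.57%) fell, about the share of all genes (1 fell and 1 rose without replicate 1): Grb10, an adaptor of growth factor receptors, at 5.75 in SMB21 replicate 1 and 5.87 to 6.02 in replicates 2 to 4, against 5.89 to 8.19 in SMB55 and SMB56 (adjusted p = 0.0493 by limma). Its 2 dimmer probe sets gave 0.08 and 0.06 and no fall. The glycolysis and hypoxia list had 1 fall of 19 with and without replicate 1, Ndrg1, and a median of 0.13.

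The 466 genes were compared with each other line in turn in the same fit, so that the contrasts share the SMB21 arrays. Against SMB55 alone 486 genes (4.06%) passed, 222 (1.86%) higher and 264 (2.21%) lower in SMB21. Against SMB56 alone 32 genes (0.268%) did, 11 (0.092%) higher and 21 (0.176%) lower. Of the 466 genes, 318 also passed against SMB55 and 32 against SMB56, while 460 had the same sign against both. The 466 were chosen on the mean of these 2 contrasts, so their shared sign was largely set by that choice and is no separate support. Slc1a5 was 2.81 above SMB55 and 1.52 above SMB56 (adjusted p = 0.00159 and 0.0298 by limma). Gsn was -4.79 and -4.52 (adjusted p = 0.009 and 0.0306), Tmem267 -5.25 and -3.89 (adjusted p = 0.00236 and 0.0173), by limma. Setd6 was 3.23 above SMB55 and 0.71 above SMB56, where it did not pass (adjusted p = 0.316 by limma). Leaving out either SMB56 array raised the count against SMB56, though each of those fits leaves 1 SMB56 array. Without SMB21 replicate 1, 335 genes passed against SMB56. Without SMB21 replicate 2, 3 or 4 the counts were 0, 0 and 1.

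SMB55 and SMB56 themselves differed in 20 genes (0.167%), 17 (0.142%) higher and 3 (0.0251%) lower in SMB55. Bmp5, a bone morphogenetic protein, was 10.22 and 9.48 in SMB55 and 5.93 and 6.0 in SMB56 (3.89, SE 0.26, adjusted p = 0.00775 by limma), and 5.80 in SMB21 replicate 1 and 5.58 to 6.07 in replicates 2 to 4. Bcl2l1, which blocks apoptosis, was 12.44 and 12.07 in SMB55 and 9.57 and 9.67 in SMB56 (2.63, adjusted p = 0.00946 by limma). It was 9.64 in SMB21 replicate 1 and 9.16 to 9.25 in replicates 2 to 4, like SMB56. Bmp5, Bcl2l1, Commd7, Stmn4 and Ehbp1 also passed the test of SMB21 against the mean of the SMB55 and SMB56 means, as falls of 0.93 to 2.06. In each of them only SMB55 was high, so the fall was from SMB55. Slc66a2 and Nptx1 were lower in SMB55 (-4.05 and -1.45, adjusted p = 0.0396 and 0.0339 by limma). Nptx1, a neuronal pentraxin, was 11.66 in SMB21 replicate 1 and 11.46, 11.84 and 11.48 in replicates 2 to 4, against 10.29 and 10.15 in SMB55 and 11.59 and 11.76 in SMB56, so SMB21 was again close to SMB56.

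In SMB21 replicate 1, 393 genes were at least 1 unit above the mean of replicates 2 to 4 and 305 at least 1 unit below, with 19 and 11 genes past 3 units. Olig1, a factor of the oligodendrocyte lineage, was 13.35 in SMB21 replicate 1, against 5.72 to 6.13 in replicates 2 to 4, a difference of 7.48. Fabp7, a lipid-binding protein of radial glia, was 12.46 in SMB21 replicate 1, against 5.66 to 5.99 in replicates 2 to 4 (6.68). Kcnj10, a glial potassium channel, was 11.11 in SMB21 replicate 1, against 6.37 to 6.96 in replicates 2 to 4, and Gpr37l1, a glial receptor, was 11.30 in SMB21 replicate 1, against 6.43 to 7.68 in replicates 2 to 4. Nkx2-2, a factor of ventral progenitors, was 10.07 in SMB21 replicate 1, against 5.40 to 5.54 in replicates 2 to 4. In the other direction Krt12, a keratin best known from cornea, was 5.60 in SMB21 replicate 1, against 11.06 to 11.58 in replicates 2 to 4 (-5.67). Cavin2, a caveolar protein, was 6.32 in SMB21 replicate 1, against 11.39 to 11.77 in replicates 2 to 4, and Cadps2, a regulator of vesicle release in granule cells, was 5.58 in SMB21 replicate 1, against 10.09 to 11.48 in replicates 2 to 4. Pkp2, a desmosomal plakophilin, was 5.89 in SMB21 replicate 1, against 10.20 to 10.54 in replicates 2 to 4. With 1 array these are values without a test.

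The genes that set replicate 1 apart were not all at the level of another line. Krt12 was 5.26 and 5.27 in SMB55 and 6.24 and 5.43 in SMB56, so it was high in SMB21 replicates 2 to 4 alone among the parental arrays. Olig1 was 13.04 and 13.97 in SMB55 and 9.38 and 13.53 in SMB56, so replicates 2 to 4 of SMB21 were the low ones. Nkx2-2 at 10.07 in SMB21 replicate 1 was above every SMB55 and SMB56 array, which ranged from 5.29 to 8.58. The single SMB21 array kept in growth factors was nearer to replicate 1 (r = 0.802 across genes) than to replicates 2 to 4 (0.766 to 0.768). That array was also nearer to SMB56 replicate 2 (0.793) and SMB55 replicate 2 (0.787) than to SMB21 replicates 2 to 4. The 3 SMB21 RAS arrays were nearer to SMB21 replicates 2 to 4, at 0.727 to 0.801, than to replicate 1, at 0.680 to 0.746. SMB21 RAS replicate 1 correlated at 0.737 with parental SMB56 replicate 2, above its 0.727 with parental SMB21 replicate 2. Eif2s3y was 9.98 in the SMB21 growth factor array and 4.89 to 5.00 in the 3 SMB21 RAS arrays.

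**Figure D3:**
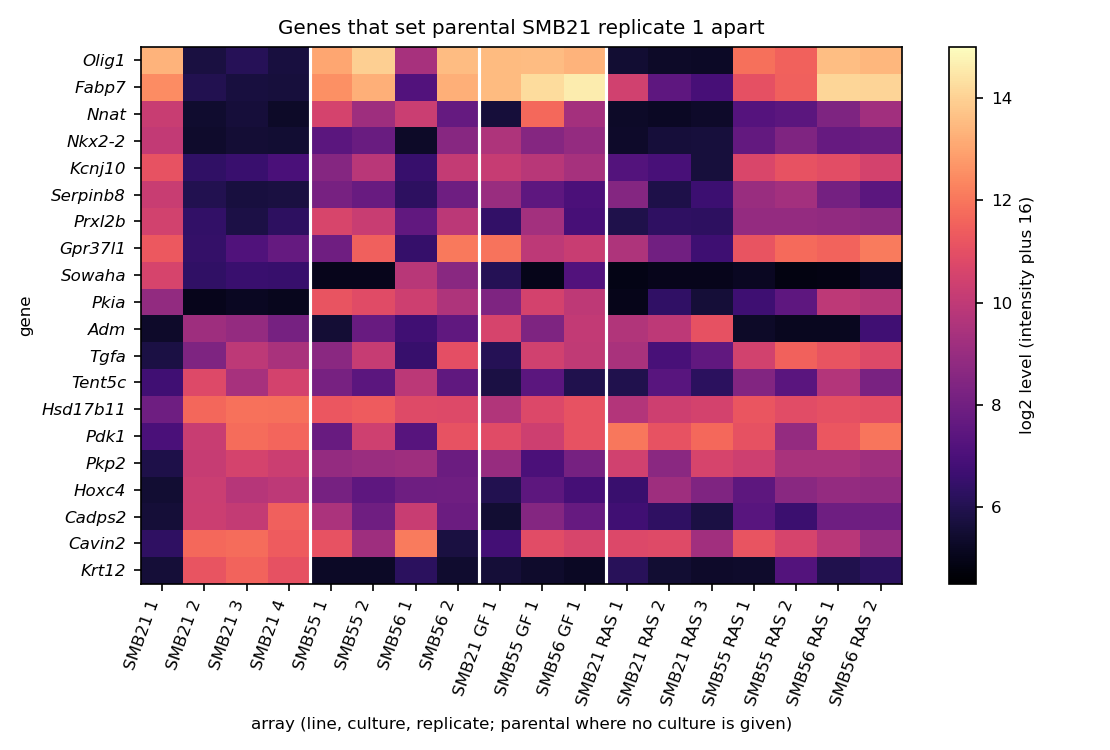
Log2 level (color) of the 10 genes furthest above and the 10 furthest below in SMB21 replicate 1 relative to replicates 2 to 4, in the 8 parental arrays, the 3 growth factor (GF) arrays and the 7 RAS arrays. Krt12 reached 11.06 to 11.58 in SMB21 replicates 2 to 4 only, and Olig1 was at most 6.13 in those arrays and in the SMB21 RAS arrays.

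RAS transformed cells labelled as the same lines share no array with the parental test. In them SMB21 differed from SMB55 and SMB56 in 2456 genes (20.5%), with 1098 (9.18%) higher and 1358 (11.4%) lower. Median centring of the arrays turned this into 2561 higher and 1103 lower genes. Of the 229 genes higher in parental SMB21, 195 were above 0 in RAS cells, 96 (41.9%) passed as higher and 4 as lower, with a median difference of 0.61. Of the 237 lower genes, 192 were below 0, 103 (43.5%) passed as lower and 4 as higher, with a median of -0.69. Over all 11958 genes, 6863 were above 0 and 5095 below 0 in RAS cells, and the RAS median was 0.06. The line difference thus had the parental direction in most of these genes. Slc1a5 was 7.77 to 9.02 in SMB21 RAS arrays, against 6.03 to 6.64 in SMB55 and SMB56 RAS arrays (2.14, adjusted p = 0.0113 by limma). Tmem267 was 6.46 to 8.02 in SMB21 RAS arrays, against 10.23 to 10.88 in SMB55 and SMB56 RAS arrays (-3.48, adjusted p = 0.00501 by limma). Setd6 was 8.74 to 9.33 in SMB21 RAS arrays, against 5.34 to 6.11 in SMB55 and SMB56 RAS arrays (3.36, adjusted p = 0.000925 by limma). Ndrg1 was 6.27 to 7.82 in SMB21 RAS arrays, against 9.95 to 11.99 in SMB55 and SMB56 RAS arrays (-4.25, adjusted p = 0.00968 by limma), and Cntn1 was 5.40 to 5.77 in SMB21 RAS arrays, against 7.09 to 13.26 in SMB55 and SMB56 RAS arrays (-4.48, adjusted p = 0.000381 by limma). Olig1, which had not passed in parental cells, was 5.26 to 5.51 in SMB21 RAS arrays, against 11.52 to 13.59 in SMB55 and SMB56 RAS arrays (-7.24, adjusted p = 1.8e-05 by limma).

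The line difference itself differed between RAS and parental cells in 293 genes (2.45%) by an interaction test, upward in 119 (0.995%) and downward in 174 (1.46%), with 26 of the 229 higher and 28 of the 237 lower genes among them. Olig3 was at the floor in every RAS array, 5.39 to 5.62 in SMB21 RAS arrays, against 5.33 to 5.42 in SMB55 and SMB56 RAS arrays, and its line difference changed by -3.07 (SE 0.54, adjusted p = 0.0152 by limma). Runx1t1 changed by -2.29 (adjusted p = 0.00956 by limma). Gsn was 10.18 to 11.82 in SMB21 RAS arrays, against 11.76 to 12.75 in SMB55 and SMB56 RAS arrays, so its line difference shrank, with a change of 3.61 (adjusted p = 0.0171 by limma). Fn1 and Mfap4 changed by 2.66 and 4.21 (adjusted p = 0.0304 and 0.0245 by limma). Bag3 was 6.14 to 6.54 in SMB21 RAS arrays, against 11.12 to 12.06 in SMB55 and SMB56 RAS arrays, and its line difference changed by -2.68, to a wider fall (adjusted p = 0.000611 by limma). Gli2 was 10.32 to 11.03 in SMB21 RAS arrays, against 7.85 to 8.43 in SMB55 and SMB56 RAS arrays, and its rise widened by 1.72 (adjusted p = 0.00852 by limma). Of 21 interferon response genes 15 passed as higher in SMB21 RAS cells and 0 in parental SMB21. Irgm1, which fell in parental SMB21, did not pass in RAS cells (0.63, adjusted p = 0.212 by limma). Its line difference changed by 2.12 (adjusted p = 0.0264 by limma).

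With 1 array per line the growth factor cultures allow no test. Of the 229 genes higher in parental SMB21, 155 were above 0 there, and of the 237 lower genes, 178 were below 0. Over all genes 5965 were above and 5992 below. Tmem267 differed by -4.36, Tmem98 by -3.73, Slc1a5 by 1.80 and Setd6 by 1.87, all in the parental direction. Olig3 differed by -0.53 and Ndrg1 by 2.73, both against the parental direction.

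**Figure D4:**
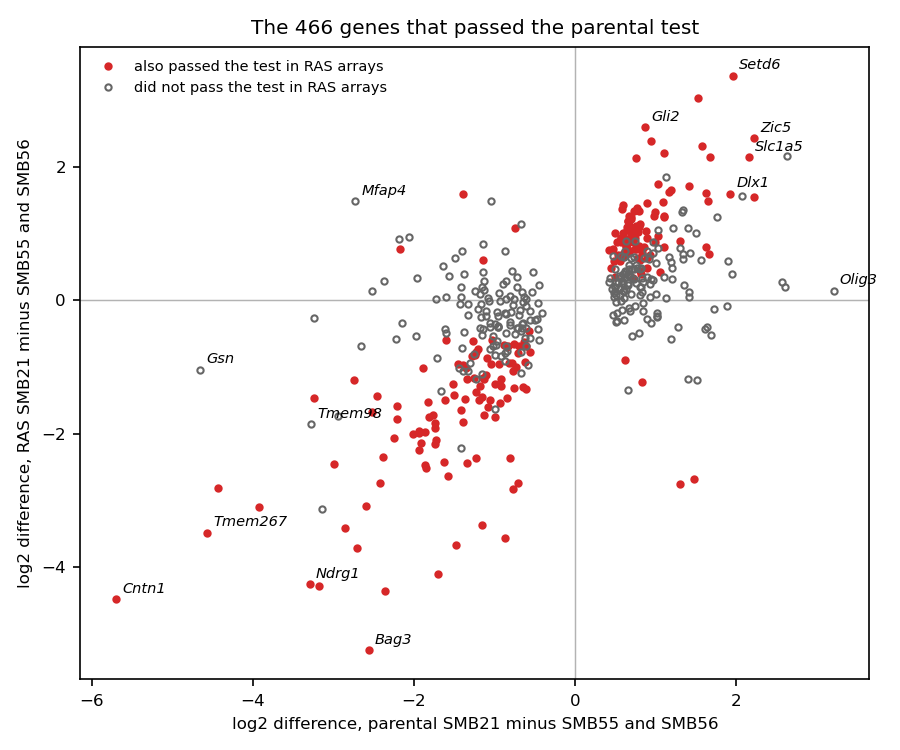
Each point is 1 of the 466 genes that passed the parental test, with the log2 difference of SMB21 minus SMB55 and SMB56 in parental arrays on the x axis and in RAS arrays on the y axis. Filled points also passed in RAS arrays; most lie in the lower left and upper right, Bag3 at -2.56 and -5.24 among them, while Olig3 and Mfap4 lie away from them.

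Primary medulloblastomas (3 arrays) give a scale for these levels, without a test. Slc1a5 was 5.65 to 6.88 in tumors, below all 4 SMB21 arrays. Dlx1, at 5.73 to 6.72, was also below them. Olig3 was 7.13 to 9.19 and so reached the SMB21 range. Tmem267 was 6.78 to 9.74 and Gsn 8.18 to 9.12, both above SMB21 and mostly below the other lines. Pkia was 12.32 to 13.40 and Ebf3 12.12 to 12.33, above every parental array of any line.

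Counts of genes past the threshold were also taken by chromosome, beside 3.9% over all of them. Chromosome 1 held 41 higher and 9 lower genes of 708 tested (7.06%), and chromosome 16 held 22 and 7 of 414 (7.0%). Chromosome 13 held 0 higher and 28 lower of 459 (6.10%). Chromosome 2 held 14 higher and 46 lower of 965 (6.22%), and chromosome 12 held 17 and 5 of 384 (5.73%). The other 14 chromosomes held 1.98% to 4.32%. The median over the genes of a chromosome at or above 8.38 was taken in each array as a deviation from the mean of the 8 arrays. Chromosome 1 was 0.08 in SMB21 replicate 1 and 0.19, 0.17 and 0.12 in replicates 2 to 4, against -0.23 and -0.10 in SMB55 and -0.12 and -0.06 in SMB56. All SMB21 arrays were above all others, and chromosomes 5 and 9 were the only others without overlap, both lower in SMB21. Chromosome 13 was 0.02 in SMB21 replicate 1 and -0.34, -0.30 and -0.30 in replicates 2 to 4, against 0.48 and 0.40 in SMB55 and -0.17 and 0.21 in SMB56. Replicates 2 to 4 of SMB21 were low, SMB55 was high, and SMB21 replicate 1 was between them. Chromosome 16 was 0.01 in SMB21 replicate 1 and 0.18, 0.16 and 0.18 in replicates 2 to 4, against -0.19 and -0.09 in SMB55 and -0.09 and 0.03 in SMB56, so that without replicate 1 SMB21 was above every other array. Without replicate 1, 8 of 19 chromosomes had no overlap.

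Single arrays also carried shifts of their own. In SMB56 replicate 1 chromosome 7 was -0.54 and chromosome 10 was -0.44, against 0.14 and 0.00 in SMB56 replicate 2. Every one of the 12 windows of 30 neighboring genes on chromosome 7 was below -0.4 in SMB56 replicate 1. In SMB21 replicate 1 chromosomes 12 and 19 were 0.29 and 0.33, against -0.05 to -0.11 in replicates 2 to 4. Such shifts were not tested as a cause of any gene's difference.

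Of 190 windows of 30 genes, 33 had no overlap, 11 higher and 22 lower in SMB21. Without SMB21 replicate 1, 69 had none, 21 higher and 48 lower. The widest gap was on chromosome 1, from Farsb to Rnpepl1: 0.21 in SMB21 replicate 1 and 0.31, 0.17 and 0.36 in replicates 2 to 4, against -0.35 and -0.34 in SMB55 and -0.14 and -0.10 in SMB56. A window on chromosome 2 from Ncoa6 to Manbal was -0.52 in SMB21 replicate 1 and -0.64, -0.64 and -0.73 in replicates 2 to 4, against 1.29 and 1.10 in SMB55 and -0.38 and 0.66 in SMB56. SMB55 and SMB56 replicate 2 were high there, and SMB56 replicate 1 was close to SMB21. The window before it, from Srxn1 to Trp53inp2, was -0.22 in SMB21 replicate 1 and -0.29, -0.28 and -0.19 in replicates 2 to 4, against 0.58 and 0.22 in SMB55 and -0.18 and 0.07 in SMB56. Bcl2l1, Commd7 and E2f1, which were high in SMB55 alone, lie between those 2 genes. A window on chromosome 16 from Fam43a to Gsk3b was 0.03 in SMB21 replicate 1 and 0.25, 0.36 and 0.31 in replicates 2 to 4, against -0.32 and -0.34 in SMB55 and -0.14 and -0.27 in SMB56, high in SMB21.

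**Figure D5:**
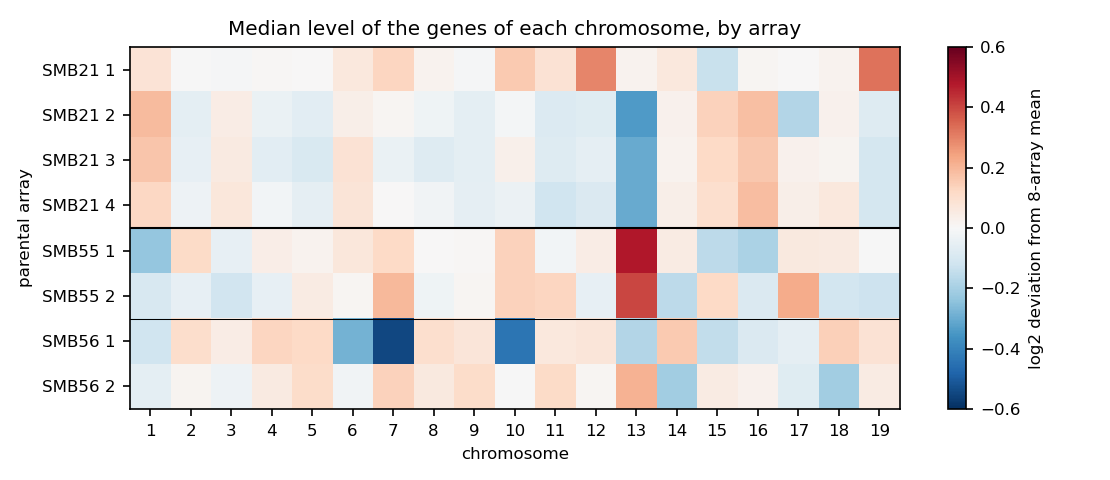
Median log2 deviation of the genes of each chromosome (x axis) in each parental array (y axis) from the mean of the 8 arrays, after removing the array's own median. Chromosome 13 is -0.30 to -0.34 in SMB21 replicates 2 to 4, against 0.48 and 0.40 in SMB55, and chromosomes 7 and 10 are low in SMB56 replicate 1 only.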

How the data were processed

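RNA of 24 samples was measured on Affymetrix arrays from biotin-labelled total RNA, per the labels' protocols. The deposited values are linear intensities, 1 per probe set and array; the authors' summary and normalization method was not given in the sources used here. Parental arrays had median intensities of 216 to 241, and the number of arrays limits the precision. Of 22690 probe sets, 20393 had 1 gene symbol, 691 several and 1606 were not named here. Each gene was read from its probe set with the highest mean log2(intensity + 16). The 410 X and Y genes and 26 genes without a chromosome were left out.

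Means per line were fitted to the 8 parental arrays with limma 3.58.1 in R 4.3.3. SMB21 was set against the mean of the SMB55 and SMB56 means, with Benjamini-Hochberg adjustment over 11958 genes and a threshold of 0.05. RAS arrays were fitted apart, and both sets together for the interaction. The fit was tested on simulated data. Tables were made with Python 3.11.15, pandas 2.3.3 and numpy 2.4.6.

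Named genes were the 15 largest rises and 15 largest falls among genes called with and without SMB21 replicate 1, not overlapping, and reaching the median level in the higher group. Up to 3 called members per list, 23 set pathway and cell type genes, the 10 genes furthest above and the 10 furthest below in SMB21 replicate 1, and up to 5 genes each way between SMB55 and SMB56 were added. The arrays, gene lists and rule were chosen with earlier results of these data known. Alternatives changed the pseudocount, centring, normalization, low-level filter, probe sets, variance prior, arrays and replicate block.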

Additional observations from a re-analysis of the deposited data

Results flagged for a closer look

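In 22 named genes SMB21 replicate 1 stood far from replicates 2 to 4, with a gap to its nearest neighbor above Dixon's 95% critical share of the SMB21 range for 4 samples. Chance alone marks about 1 in 20 groups this way, and 14 of the 22 genes were named for their distance in replicate 1. The gap as a share of the range was 0.996 for Olig2, 0.968 for Nkx2-2, 0.964 for Pkia, 0.95 for Fabp7, 0.947 for Olig1, 0.946 for Sowaha and 0.939 for Hsd17b11. It was 0.937 for Nnat, 0.937 for Serpinb8, 0.936 for Synpr, 0.93 for Cavin2, 0.926 for Pkp2, 0.915 for Man1a2, 0.914 for Krt12 and 0.895 for Hoxc4. It was 0.876 for Zfp105, 0.876 for Prxl2b, 0.875 for Kcnj10, 0.859 for Sufu, 0.857 for Neurod1, 0.841 for Stmn2 and 0.839 for Nrp2.

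In 13 named genes the difference of SMB21 from SMB55 and SMB56 was itself different in RAS and in parental arrays, by limma's interaction test over all genes. The RAS difference minus the parental one was -3.07 for Olig3, -2.29 for Runx1t1, -2.68 for Bag3 and -2.01 for Nptx1. It was 4.21 for Mfap4, 3.61 for Gsn, 3.01 for Bmp5, 2.66 for Fn1, 2.29 for Abcg2, 2.12 for Irgm1, 1.93 for Commd7, 1.72 for Gli2 and 1.18 for Bcl2l1.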

How the results depend on the processing

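The count of 466 genes for SMB21 against SMB55 and SMB56 was between 367 and 523 with no pseudocount, a pseudocount of 64, centred arrays, quantile normalization, the dimmest genes left out, the mean of probe sets, X and Y genes kept, or a trended robust prior. It was 763 with all 18 culture arrays in the fit and 202 with SMB55 and SMB56 as 1 group. Leaving out 1 array gave 21 to 1279. Leaving out both SMB21 replicate 1 and SMB56 replicate 1, an alternative chosen after seeing the data, gave 2321.

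Against SMB55 the count was 732 with all 18 culture arrays and 43 to 1332 with 1 array left out, and against SMB56 it was 91 and 0 to 335. Between SMB55 and SMB56 it was 68 with all 18 culture arrays, 12 with the mean of probe sets and 8 to 302 with 1 array left out. In RAS arrays leaving out 1 array gave 844 to 2187. Chromosomes without overlap were 8 without SMB21 replicate 1, against 3 with it. No named gene past the threshold changed sign in any of these settings; Barhl1, Ccnd1, Ccnd2, Neurod1, Stmn2 and Zic1, which were not past it, did in some. The balance of calls did turn: 229 higher and 237 lower became 300 and 223 with centred arrays, 269 and 223 with quantile normalization and 234 and 223 with a pseudocount of 64. Against SMB55, 222 and 264 became 267 and 222 with centred arrays. The cause of these moves was not tested.

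With the replicate number as a block the counts were 0 for each of the 4 parental comparisons and 1516 in RAS arrays. Numbers above 2 occur in SMB21 only, so the block takes those arrays out of the line comparison. For SMB21 the parental counts of 0 thus cannot tell unstable genes from that loss. Deviations of same-numbered parental arrays from their line's mean correlated at 0.504 between SMB55 and SMB56. For these 2 lines the numbers thus went with a shared shift, whose source was not tested. Between SMB21 and SMB55 the correlations were 0.0681 for number 1 and 0.0108 for number 2. Between SMB21 and SMB56 they were -0.106 and -0.079. In RAS arrays they were 0.166 and 0.117 between SMB21 and SMB55, and 0.128 and -0.000604 between SMB21 and SMB56. Between SMB55 and SMB56 RAS arrays the value was 0.0473.

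With 2 arrays each of SMB55 and SMB56, any single array carries much of its line's mean. Levels near 4.70, the lowest on any array, give no order between genes.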
